A study of Mus musculus with 2 samples.

Results

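The regions described here are 1216 of the 12333 peaks listed for the ALKBH5-FLAG library of a mouse CUT&Tag experiment, or 9.86% of that list. A peak was taken when it lay on chromosomes 1 to 19, X or Y, shared 0 bases with any IgG peak, and had its summit inside a protein-coding gene, more than 1 kb but less than 10 kb from the nearest end of a protein-coding gene in the RefSeq annotation of GRCm38. They are called inner-band peaks below, since they sit inside genes but away from the annotated ends. The peaks were chosen by the peak calls of both libraries and by the position of the summit, so the absence of IgG overlap and the distance to gene ends are properties of the choice and not findings. For comparison, 5052 ALKBH5-only peaks lay within 1 kb of a gene end and 1548 lay 10 kb or more inside genes. In the same 1 to 10 kb band, 196 ALKBH5 peaks overlapped an IgG peak, and the IgG list held 415 peaks, of which 215 overlapped no ALKBH5 peak.

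The study asked whether ALKBH5 binds DNA. Hepa1-6 cells, a mouse hepatoma line, were infected overnight with the ad-FLAG-ALKBH5 adenovirus, and 1 library was made from an ALKBH5-FLAG reaction and 1 from an IgG reaction, a non-specific antibody that gives the assay background. The protocols of both samples give this infection, so the tagged ALKBH5 was brought in by a virus, and no uninfected cells are used here. The sources differ in places: primary hepatocytes are named in the series text, though the samples carry the Hepa1-6 label, and the IgG sample has ALKBH6-FLAG as its treatment tag beside a protocol with the ALKBH5 virus, so whether both reactions had the same infection is not settled. Which antibody was used for ALKBH5-FLAG is not stated in these sources. With 1 library per group there is no replicate spread, no test between the libraries was made, and every value below describes these libraries.

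ALKBH5 is an enzyme that removes the methyl group of N6-methyladenosine (m6A) from RNA, a mark laid down while genes are being transcribed by a complex whose catalytic subunit is METTL3. CUT&Tag brings the Tn5 transposase to antibody-bound sites, where it cuts the DNA and adds sequencing adapters, with open chromatin such as active promoters also cut at a background rate. A gene can be transcribed from more than 1 start, so a promoter can lie well inside the outer limits of a gene as a database draws it.

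A property of many inner-band peaks, though of fewer than lacked it, was a place at an annotated transcription start inside the gene. A listed start here is a start in the RefSeq (GRCm38.p6) promoter table, which gives the strand and the 300 bases from 250 before to 50 after each start. Each window is cut around a start and not around a peak, so part of it can lie outside the peak. The windows of 7 such starts are printed first. They are the windows of the 5 inner-band peaks of highest fold enrichment whose own gene's start lay inside the peak, then the inner start of Mllt10 and the start of Mettl3. Mllt10 was picked after its values were seen, and Mettl3, which encodes the catalytic m6A writer, was picked for its function. Fold enrichment is the authors' ratio of the fragments stacked at the summit (the pileup) to the local background, each with 1 added. Each sequence is written 5′ to 3′ along the gene's strand in lower case, and capitals mark matches, on either strand, to any of the 10 short motifs named after the sequences.
Larp4: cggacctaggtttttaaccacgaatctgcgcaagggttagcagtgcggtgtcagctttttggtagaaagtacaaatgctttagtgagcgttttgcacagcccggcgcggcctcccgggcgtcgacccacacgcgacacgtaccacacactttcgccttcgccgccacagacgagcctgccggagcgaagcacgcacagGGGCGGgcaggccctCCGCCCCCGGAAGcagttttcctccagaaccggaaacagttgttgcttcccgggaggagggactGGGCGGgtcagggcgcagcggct
Ddx50: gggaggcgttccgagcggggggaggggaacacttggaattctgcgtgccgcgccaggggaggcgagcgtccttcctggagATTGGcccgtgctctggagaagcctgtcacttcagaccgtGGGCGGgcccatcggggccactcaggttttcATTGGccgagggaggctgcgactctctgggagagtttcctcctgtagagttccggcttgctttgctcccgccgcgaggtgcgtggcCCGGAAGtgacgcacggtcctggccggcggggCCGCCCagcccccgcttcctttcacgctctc
Otud5: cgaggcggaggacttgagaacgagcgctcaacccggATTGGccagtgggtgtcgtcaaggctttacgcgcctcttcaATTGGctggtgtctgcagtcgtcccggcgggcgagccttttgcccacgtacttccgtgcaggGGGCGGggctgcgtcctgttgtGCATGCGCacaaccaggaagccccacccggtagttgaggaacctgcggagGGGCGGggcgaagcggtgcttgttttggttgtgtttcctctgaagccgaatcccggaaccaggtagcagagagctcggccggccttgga
Unc45a: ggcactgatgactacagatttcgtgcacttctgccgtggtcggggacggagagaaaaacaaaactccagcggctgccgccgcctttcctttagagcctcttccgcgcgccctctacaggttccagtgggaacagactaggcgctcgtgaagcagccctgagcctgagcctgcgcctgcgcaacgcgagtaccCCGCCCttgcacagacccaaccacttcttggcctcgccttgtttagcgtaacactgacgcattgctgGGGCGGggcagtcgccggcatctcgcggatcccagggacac
Anapc5: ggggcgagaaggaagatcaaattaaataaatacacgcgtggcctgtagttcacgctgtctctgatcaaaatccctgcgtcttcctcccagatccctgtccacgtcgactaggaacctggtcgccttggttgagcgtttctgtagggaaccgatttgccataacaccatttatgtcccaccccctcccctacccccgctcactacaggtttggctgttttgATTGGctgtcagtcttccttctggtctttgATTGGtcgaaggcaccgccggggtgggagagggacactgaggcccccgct
Mllt10: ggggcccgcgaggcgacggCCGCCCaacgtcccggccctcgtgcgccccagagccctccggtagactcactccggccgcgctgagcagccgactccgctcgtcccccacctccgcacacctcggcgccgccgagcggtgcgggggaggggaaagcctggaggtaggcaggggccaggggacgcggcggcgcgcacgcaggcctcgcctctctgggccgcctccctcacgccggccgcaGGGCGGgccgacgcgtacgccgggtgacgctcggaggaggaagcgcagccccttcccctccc
Mettl3: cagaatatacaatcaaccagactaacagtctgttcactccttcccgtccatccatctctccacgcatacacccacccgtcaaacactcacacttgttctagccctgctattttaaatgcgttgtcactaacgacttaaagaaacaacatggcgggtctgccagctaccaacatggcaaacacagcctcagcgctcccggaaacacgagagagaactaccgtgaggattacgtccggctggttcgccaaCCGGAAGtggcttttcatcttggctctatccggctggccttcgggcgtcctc
The Larp4 window is chr15:99972530-99972829 on the plus strand and the Ddx50 window is chr10:62651169-62651468 on the minus strand. The Otud5 window is chrX:7841581-7841880 (plus), the Unc45a window chr7:80340170-80340469 (minus), the Anapc5 window chr5:122821293-122821592 (minus), the Mllt10 window chr2:18064335-18064634 (plus) and the Mettl3 window chr14:52305075-52305374 (minus), all on GRCm38.p6. The GC box GGGCGG had 3 matches in the Larp4 window and 2 each in those of Ddx50, Otud5, Unc45a and Mllt10. In the Larp4 window a GC box on the opposite strand directly adjoins an ETS match, CCGGAAG, with no shared base, and further ETS matches lie in the Ddx50 and Mettl3 windows. The CCAAT box, CCAAT, had 2 matches each in the Ddx50, Otud5 and Anapc5 windows. The NRF1 motif GCGCATGC was found in the Otud5 window. No match in these 7 windows was found for AP-1 (TGANTCA), CRE (TGACGTCA), the E-box CACGTG, FOXA (TGTTTAC), C/EBP (TTGCGCAA) or HNF4 (CAAAGTCCA). A match is a match of letters and nothing more.

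The genes of these windows have varied roles. Larp4 encodes a protein that binds poly(A) tails and stabilises mRNA, and its peak had a pileup of 28 and a fold enrichment of 10.7, with the summit 13 bp downstream of the start and 2728 bp from the gene's annotated 5′ end. The peak in Ddx50, a nucleolar RNA helicase gene, had a pileup of 20 and a fold enrichment of 10.1, and its summit lay 59 bp upstream of a start that is itself deep in the band, with the gene end 7487 bp away. Otud5 encodes a deubiquitinase, and its peak had a pileup of 19 and a fold enrichment of 10.0. All 3 lay more than 2 kb inside the outer gene limits. The peak of Unc45a, a myosin chaperone gene, had a pileup of 17 and a fold enrichment of 10.0, and that of Anapc5, which encodes a subunit of the anaphase-promoting complex, had a pileup of 20 and a fold enrichment of 9.29. The peaks at the other windows are described with inner starts (Mllt10) and with the m6A genes (Mettl3).

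Of the 1216 inner-band peaks, 466 had the summit within 1 kb of a listed start, a share of 38.3% (exact 95% interval 35.6 to 41.1%). Intervals here are Clopper-Pearson intervals and cover counting error only. Leaving out chromosome 18, for which no starts are used here and which holds 38 of the peaks, the share was 39.6%, while bases within 1 kb of a listed start made up 2.72% of the gene sequence in the band. As a density, 69.9 ALKBH5-only peaks fell on each Mb near listed starts and 2.98 on each Mb farther away. IgG peaks of the same band were also denser near starts, at 15.9 against 1.23 per Mb, and IgG peaks that overlapped no ALKBH5 peak had 2.55 against 0.792 per Mb. Of the 196 ALKBH5 peaks of the band that overlapped IgG, 86 lay near a listed start (43.9%), more than among the inner-band peaks, at 12.9 against 0.440 per Mb. Deeper in genes, 162 of 1548 ALKBH5-only peaks, or 10.5%, lay near a listed start, at 28.0 per Mb against 1.85 per Mb farther away. The nearness to starts was therefore seen in both libraries, and its size in the ALKBH5 list has to be read beside the IgG density.

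Read from the starts, the RefSeq table lists 3421 starts within protein-coding genes in the 1 to 10 kb band. An inner-band peak covered 299 of them, or 8.74%, and had its summit within 1 kb of 514 of them, or 15.0%. IgG peaks covered 36 of the 3421, or 1.05%. Most listed inner starts thus held no peak in either list. A listed start lay inside 279 of the 1216 peaks (22.9%), inside 33 of the 415 IgG peaks of the band (7.95%), and inside 71 of the 196 ALKBH5 peaks of the band that overlapped IgG (36.2%). Of the 215 IgG peaks of the band that overlapped no ALKBH5 peak, 3 (1.40%) held a listed start.

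The nearest start belonged to the host gene for 426 of the 466 peaks (91.4%) and to a non-coding gene for 40 (8.58%). The choice leaves no other outcome, since a start of another protein-coding gene within 1 kb would put an end of that gene within 1 kb of the summit. The summit was within 100 bp of the start in 165 peaks, within 250 bp in 272 and within 500 bp in 409. The median offset was 15 bp downstream, with quartiles of −91.5 and 296 bp. For 4042 ALKBH5-only peaks at gene ends with a listed start within 1 kb, the median offset was −5 bp, with quartiles of −94 and 182 bp. The upper quartile of the inner-band peaks was farther downstream than that of gene-end peaks, and the choice keeps no inner-band summit within 1 kb of an outer gene end.

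**Figure D1:**
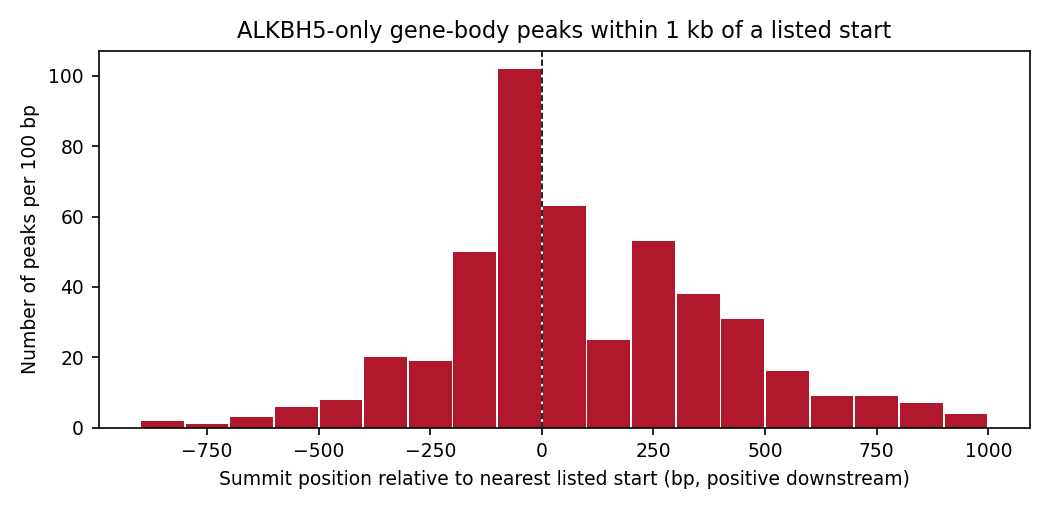
Number of inner-band peaks in each 100 bp step of summit position relative to the nearest listed start, for the 466 peaks within 1 kb of one, with positive values downstream along the gene. The tallest bar, 102 peaks, is the 100 bp just upstream of the start, and a second rise of 53 peaks stands 200 to 300 bp downstream.

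Where a gene lists several starts, the peaks were found at inner and at outer ones. Of the 426 peaks at a start of their own host, 246 (57.7%) were at the only start listed for the gene, 43 (10.1%) at the outermost of several and 137 (32.2%) at an inner one. A gene's only listed start can lie inside the gene because the annotated outer end often extends past it: the outermost listed start coincided with the outer end in 8433 of 15297 eligible genes with a listed start (55.1%) but in 71 of the 413 genes with a peak at an own start (17.2%). The choice favours such genes, since a start at the outer end is within 1 kb of it. Of 72 peaks at an inner start over 2 kb from the outermost listed start, 22 (30.6%, interval 20.2 to 42.5%) had an ALKBH5 summit within 1 kb of the outermost start too, beside 35.1% of all eligible genes with a listed start.

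Examples of inner starts include a start of Mllt10, which encodes a cofactor of the histone methyltransferase DOT1L. Its peak had a pileup of 15 and a fold enrichment of 8.60 and lay at a start 9.35 kb inside the outermost one. Sgk1, a kinase gene induced by glucocorticoids and serum, had a pileup of 22 and a fold enrichment of 8.52 at a start 112 kb from its outermost listed start. Nadk, the gene of NAD kinase, had a pileup of 21 and a fold enrichment of 8.46. No ALKBH5 summit lay within 1 kb of the outermost start of these 3 genes. The next by fold enrichment were Plcd1 (8.44), S100a3 (7.88) and Sema6b (7.69), a phospholipase C, a calcium-binding protein and a semaphorin gene. These 6 genes were chosen after their values were seen, as the inner-start peaks of highest fold enrichment.

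The starts that the peaks covered were rich in GC and CpG. The 299 windows of starts inside inner-band peaks had a median GC content of 63.7%, against 54.0% for the 3122 starts of the band outside them and 52.7% over all 32851 listed starts. The CpG ratio, the observed over expected count of CpG dinucleotides, had a median of 0.809 inside the peaks, 0.359 in the band outside them and 0.384 over all starts. In the 3619 windows inside ALKBH5-only gene-end peaks the medians were 63.3% and 0.834, and in the 36 windows of the band inside IgG peaks they were 64.0% and 0.812. Starts under inner-band peaks, under gene-end peaks and under IgG peaks thus had like medians, all above those of the other starts of the band. Of the 36 IgG windows, 3 lay in IgG peaks that overlapped no ALKBH5 peak.

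The GC-rich motifs were met more often in starts under the peaks than in other starts. The GC box was in 226 of the 299 windows (75.6%), in 32.9% of band windows outside the peaks and in 35.7% of all windows. The ETS motif was in 71 of the 299 (23.7%), in 5.48% of the band windows outside and in 8.86% of all. The NRF1 motif was in 19 (6.35%), beside 1.92% and 2.71%, and the E-box in 32 (10.7%), beside 6.57% and 7.15%. Windows inside gene-end peaks held these 4 motifs in 74.6%, 25.2%, 7.65% and 12.2% of cases, and the 36 band windows inside IgG peaks held them in 72.2%, 22.2%, 5.56% and 8.33%. The higher shares were thus seen under peaks of both libraries, but the IgG windows were mostly at places that ALKBH5 peaks overlapped. Only 3 of the 36 lay in IgG peaks without such an overlap. The CCAAT box was in 37.5% of the 299, in 32.8% of the band windows outside and in 37.4% of all windows, and CRE in 2.01%, 1.22% and 1.79%. AP-1 was scarcer under the peaks, in 8 of the 299 windows (2.68%), beside 7.66% of band windows outside and 7.81% of all. FOXA was in 5 of the 299 (1.67%), beside 2.85% and 3.65%, a difference that rests on few windows. C/EBP and HNF4, both factors of hepatocytes, matched 0 of the 299 windows, beside 0.224% and 0.545% of band windows outside and 0.183% and 0.475% of all. GC-rich motifs are met more often in GC-rich windows, and the part of base composition in these shares was not tested.

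By median height, the inner-band peaks stood between gene-end peaks and deep peaks. Their median pileup was 9 fragments, with quartiles of 6 and 12 and a range of 3 to 52. Gene-end peaks had a median pileup of 10 and deep peaks of 6. The median fold enrichment was 5.32 in inner-band peaks (quartiles 4.60 and 6.17, range 2.72 to 14.6), 5.79 in gene-end peaks and 5.19 in deep peaks. The median width was 350 bp, against 429 bp and 266.5 bp, and 221 of the 1216 peaks had the width of 200 bp, the lowest in the list. In the band itself, the 196 ALKBH5 peaks that overlapped IgG were taller, with a median pileup of 15 and a median fold enrichment of 6.99, so the peaks of the band without IgG overlap were lower than those with it. IgG peaks of the band had a median pileup of 5 and a median fold enrichment of 4.96. The depth of either library is unknown here, but the computed local backgrounds differed. The lowest was 0.129 fragments in inner-band peaks and 0.0420 in IgG peaks of the band, with medians of 0.680 and 0.168. The part of depth in the number of peaks of each library, and in which peaks overlap, was not tested.

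**Figure D2:**
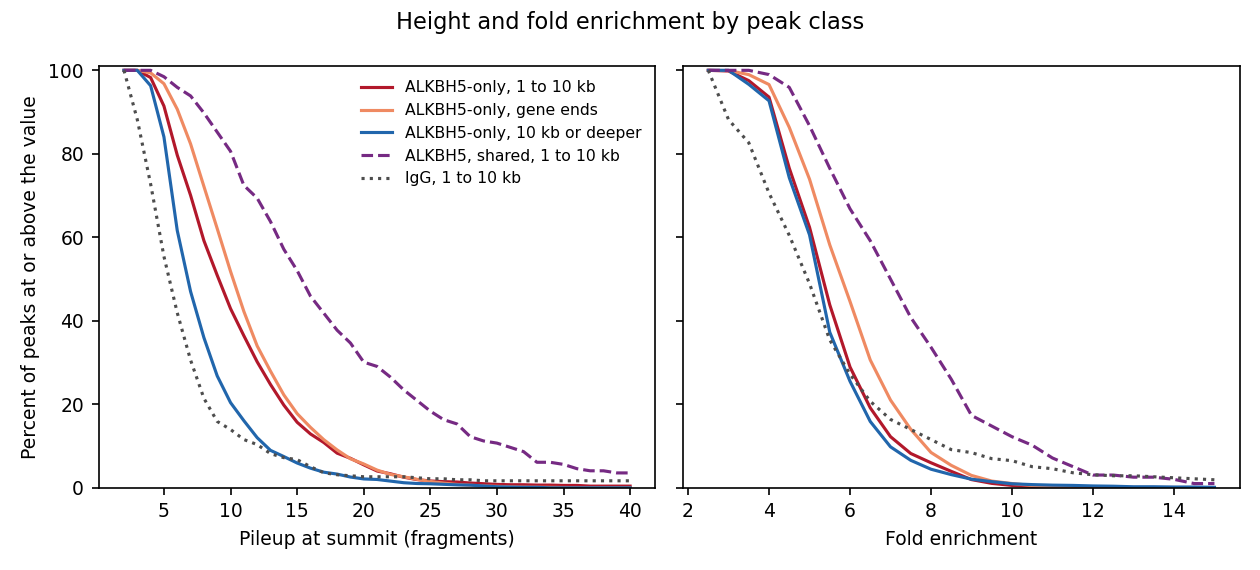
Percent of peaks (vertical axis) at or above each pileup in fragments (left) and each fold enrichment (right), for inner-band peaks (labelled ALKBH5-only, 1 to 10 kb), gene-end peaks, deep peaks, ALKBH5 peaks of the band shared with IgG, and IgG peaks of the band. At low pileups the inner-band curve lies between those of gene-end and deep peaks, with medians of 9, 10 and 6. From 25 fragments on it lies above both (1.64% against 1.52% and 0.969%). This tail includes the 6 peaks of 1 cluster on chromosome 6, with pileups of 34 to 52 and uncertain read placement. The curve without them was not drawn. The shared peaks lie to the right with a median of 15.

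Within the inner-band peaks, height fell with distance from the gene end. The 388 peaks 1 to 2 kb from an end had a median pileup of 10, the 159 at 2 to 3 kb and the 207 at 3 to 5 kb had 9, and the 251 at 5 to 7.5 kb and the 211 at 7.5 to 10 kb had 7. Nearness to a start went with height as well. The 466 peaks near a listed start had a median pileup of 10, a fold enrichment of 5.53 and a width of 416 bp, and the 538 farther away in genes with a listed start had 7, 5.17 and 296.5 bp. The remaining 212 were away from starts in genes without a listed start and had a median pileup of 8.

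The peaks were unevenly placed between the ends of genes. Where the strand was known, 716 of 988 peaks (72.5%, interval 69.6 to 75.2%) were nearer a 5′ than a 3′ end, whereas 49.9% of the bases of the band were. The same share was 76.4% of the ALKBH5 peaks of the band that overlapped IgG (120 of 157), 65.4% of IgG peaks of the band (60.0 to 70.5%) and 55.2% of deep ALKBH5-only peaks (52.3 to 58.0%). Among IgG peaks of the band that overlapped no ALKBH5 peak it was 57.6% (99 of 172, interval 49.8 to 65.0%). Inner-band peaks away from listed starts were less one-sided: 301 of 535 (56.3%, interval 51.9 to 60.5%) were nearer a 5′ end. The density on the 5′ side was 17.9 peaks per Mb at 1 to 2 kb, 7.16 at 2 to 3 kb, and between 4.63 and 5.21 from there to 10 kb. On the 3′ side it stayed between 2.32 and 3.16 over the whole band. IgG peaks fell from 4.05 to 1.67 per Mb over the same 5′ distances. With bases near listed starts left out, the 1 to 2 kb step on the 5′ side had 6.33 ALKBH5-only peaks per Mb, against 2.67 at 2 to 10 kb, and IgG had 1.17 and 1.31. The steep part of the 5′ profile thus lay mostly at listed starts, and away from them a smaller step close to the 5′ end was seen on 81 ALKBH5-only peaks and not on the 15 IgG peaks there.

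**Figure D3:**
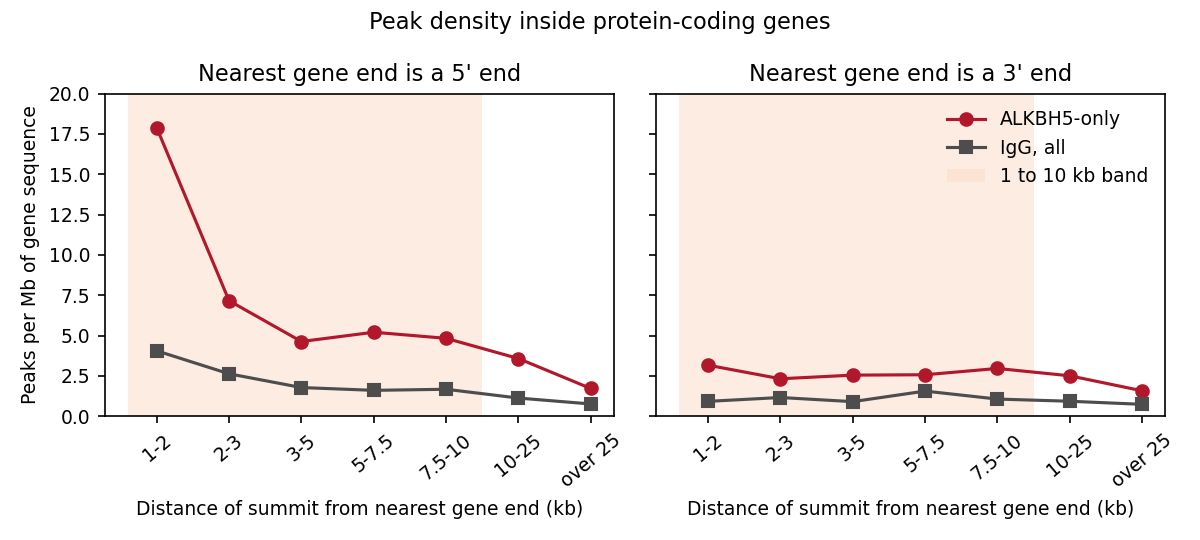
Peaks per Mb of gene sequence (vertical axis) by distance of the summit from the nearest gene end (horizontal axis, kb), for ALKBH5-only peaks and all IgG peaks, with 5′ ends on the left and 3′ ends on the right and the 1 to 10 kb band shaded. ALKBH5-only density falls from 17.9 to 4.83 per Mb across the band on the 5′ side and stays between 2.32 and 3.16 on the 3′ side.

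Over both sides, the band held 4.82 ALKBH5-only peaks per Mb against 2.10 in deeper gene sequence, a ratio of 2.29, while IgG peaks had 1.65 and 0.847 per Mb. By chromosome the density of inner-band peaks ran from 2.10 per Mb on X to 6.60 on chromosome 11, with 0 peaks on the 1.24 Mb of band sequence on Y. IgG peaks of the band had 1.24 per Mb on X and 2.35 on chromosome 11. Another ALKBH5 summit lay within 2 kb of 149 inner-band peaks (12.3%), a share near that of gene-end peaks (12.9%) and above that of deep peaks (5.43%). An IgG peak lay within 1 kb of 34 (2.80%), and the nearest was 27 bp away.

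The host genes numbered 1188, which is 6.17% of the 19252 protein-coding genes with any sequence in the band, called eligible genes here. Of these, 1108 genes held 1 peak, 75 held 2, 4 held 3 and 1 held 4. Hosts were longer than eligible genes, with a median of 31.4 kb against 21.4 kb. By quartiles of length of the eligible genes, 1.85%, 6.50%, 7.94% and 8.39% were hosts, from the shortest to the longest. An ALKBH5 peak within 1 kb of either end was found in 33.5% of eligible genes and in 289 of the hosts (24.3%, interval 21.9 to 26.9%). At the 5′ end alone the shares were 33.3% and 22.3%. They differed with the position of the inner-band peak: 54 of 413 hosts with a peak at an own start (13.1%) had a peak at the 5′ end, and 155 of 500 hosts with peaks away from starts (31.0%). The lower share of hosts as a whole went with the genes whose listed start, and inner-band peak, lay inside the outer end. The choice favours such genes, so the lower share is not a finding. An ALKBH5 summit lay within 1 kb of the outermost listed start in 54.3% of hosts (516 of 950), where inner-band peaks count as well. The share was 31.8% of the 500 hosts with peaks away from starts and 35.1% of eligible genes with a listed start.

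Gtf2i, the gene of the transcription factor TFII-I, held the most peaks, with pileups of 16, 14 and 15 at 2.77, 3.15 and 4.01 kb from its outer 5′ end and another of 3 near the 3′ end. Its listed start is 2.92 kb inside the outer end, between the outermost of these peaks and the next. Itga2b, the platelet integrin alpha chain, held 3 peaks with pileups of 19, 11 and 16, of which none was within 1 kb of its listed start. Kmt5b, a histone H4 methyltransferase gene, held 3 with pileups of 14, 11 and 4, and Kdm6b, a histone H3 lysine demethylase gene, held 3 with pileups of 30, 24 and 18. Klf13, a Krüppel-like factor gene, held 3 with pileups of 5, 6 and 16. In Gtf2i, Kmt5b and Klf13 the peak nearest the 3′ end was thus the lowest of the gene, and in Itga2b it was not. Rab7b, Wdr62, Tspan32, Tnfaip8 and Mllt10 held 2 each.

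**Figure D4:**
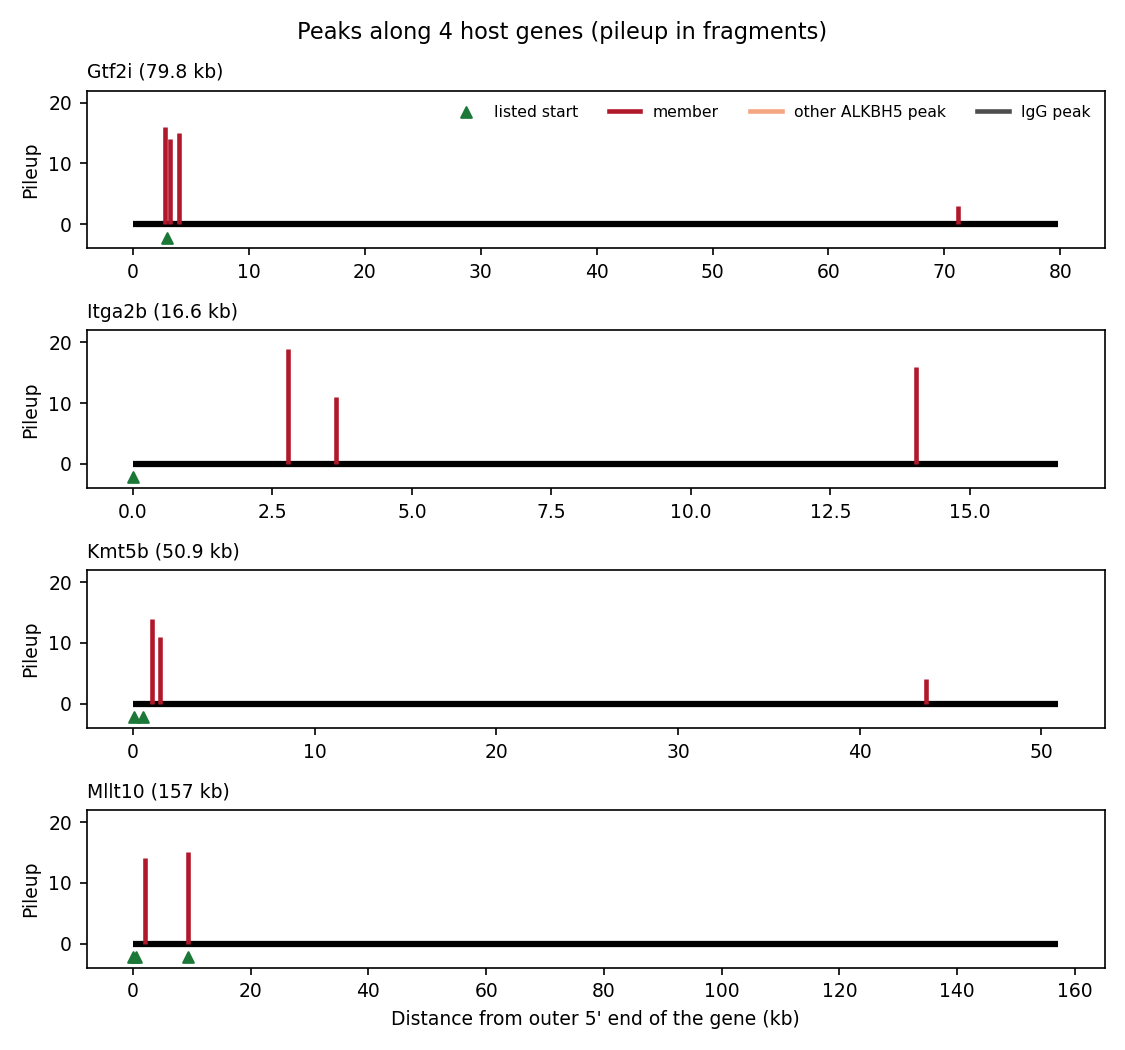
Pileup in fragments (vertical axis) of peaks along Gtf2i, Itga2b, Kmt5b and Mllt10, by distance from the outer 5′ end in kb (horizontal axis), with triangles at listed starts. All peaks drawn are inner-band peaks, as these genes held no other ALKBH5 peak and no IgG peak, and the Gtf2i peaks stand at 16, 14 and 15 around its listed start.

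The peak of highest fold enrichment was in Abhd6, the gene of a monoacylglycerol lipase, at chr14:8005924-8006298. It had a pileup of 22 and a fold enrichment of 14.6 and lay 3226 bp from the 5′ end, without a listed start within 1 kb. The next was in Msl2, which encodes a subunit of a histone acetyltransferase complex, with a pileup of 14 and a fold enrichment of 11.4, 7071 bp from the 3′ end. Both of these peaks were away from listed starts. Kif3a, a kinesin motor gene needed for cilia, had a peak of fold enrichment 10.5 whose summit was 6 bp from the start of the lncRNA gene A430108G06Rik. Stab2, the scavenger receptor of liver sinusoidal endothelium, had a peak of pileup 12 and fold enrichment 9.85, 4297 bp from its 3′ end. Gucy2g, a guanylyl cyclase gene, had 9.83, Sgca, a sarcoglycan gene of muscle, 9.77, Wdr59, a gene of the amino acid sensing pathway upstream of mTORC1, 9.76, and Erich2 9.72. The 12 peaks of highest fold enrichment, these and 4 of the 5 with printed windows, had pileups of 12 to 28.

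The highest pileups were of another kind. The 5 tallest peaks were in a cluster of predicted genes on chromosome 6 around the 4.5S RNA gene Rn4.5s at chr6:47654921-47655094, in Gm40365 (pileup 52), Gm40369 (49), Gm40367 (47), Gm36327 (47) and Gm40363 (42). With a further peak of pileup 34, the 6 had fold enrichments of 3.05 to 4.31 over high local backgrounds of 8.34 to 14.7 fragments, and 0 inner-band peaks elsewhere had a pileup of 40 or more. These hosts are predicted genes with Gm numbers in place of names, and the placement of reads among them is uncertain. The lack of IgG overlap at these 6 peaks is set by the choice. The next pileup was 36, shared by 2 peaks: that in Klf10, a Krüppel-like factor gene, with a fold enrichment of 4.47 and named after its value was seen, and that with a fold enrichment of 4.87 in Nr1d1, the gene of the clock repressor REV-ERB alpha, 1419 bp from its 5′ end.

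The widest peaks were in Ninj2 (1621 bp), an adhesion protein gene, Rassf1 (1239 bp), a tumour suppressor, Cflar (1181 bp), an inhibitor of death receptor signalling, Eva1c (1148 bp), Zbtb7a (1121 bp), a transcriptional repressor, and Tcf25 (1086 bp). Those of Rassf1, Cflar, Eva1c and Tcf25 were within 1 kb of a start of their own gene. Among hosts shorter than 10 kb, the highest fold enrichments were in Angptl6 (9.57), an angiopoietin-like gene, 1700003E16Rik (9.42), Clec11a (9.31), a bone marrow growth factor gene, Iba57 (8.89), which acts in iron-sulfur cluster assembly, Fstl3 (8.85), an activin-binding protein gene, and Trp53i13 (8.82). At the limits of the choice, Tspan31 and Zswim8 were just inside at 1001 bp with pileups of 10 and 11, and peaks in Ptges2 and E2f8 were just outside at 998 and 999 bp with 10 and 18. At the other limit, the peaks in Agxt2 (9974 bp) and Wfs1 (9992 bp) had pileups of 5 and 3, and those just outside in Parn (10028 bp) and Inpp5b (10031 bp) had 4 and 7.

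Ends of non-coding genes were near some of the peaks. The summit was within 1 kb of such an end in 113 peaks (9.29%), most often of a lncRNA (94 of the 113) or a miRNA gene (8). By fold enrichment the first of these were in Larp4 (near 2310068J16Rik), Kif3a, Mmadhc (9.26, near Gm13483), Wdr62 (8.90, near Thap8), Prx (8.74, near Gm15541), Sgo1 (8.59, near Gm31532), Psen2 (8.23, near Gm31728) and Mllt10 (8.15, near Mir7655). Mmadhc acts in vitamin B12 metabolism, Prx in myelin, Sgo1 in the protection of centromeric cohesion and Psen2 in gamma-secretase. Peaks at Larp4, Wdr62, Sgo1 and Psen2 were at the same time at a start of their own gene.

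Host genes were next counted in 20 lists of genes of liver, signalling, chromatin and RNA methylation. Together 57 of the 457 eligible list genes were hosts (12.5%, interval 9.59 to 15.9%), beside 6.17% of all eligible genes, and 14 lists were above that share and 6 below. The lists were written with earlier results of these data known, and their genes had median lengths from 4.73 to 72.7 kb, so these shares are descriptions. Of the 66 inner-band peaks in these genes, 27 (40.9%) were within 1 kb of a listed start, a share near that of all inner-band peaks.

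Of 24 m6A genes, 4 were hosts (16.7%, interval 4.74 to 37.4%) and 15 (62.5%) had an ALKBH5 peak at a gene end, beside 33.5% of all eligible genes. But 1 of the 24 was a host with −log10 q of 5 or more, and 1 with a fold enrichment of 5 or more. Of all eligible genes, 2.53% and 3.87% were hosts at these thresholds. The share with a gene-end peak was higher in some other lists, among them splicing factors (74.1%) and antioxidant genes (73.7%). It was lower in others, among them nuclear receptors (42.9%) and hepatocyte genes (8.70%). A gene-end share of 62.5% thus did not set the m6A genes apart from the other lists. Mettl3 held a pair of low peaks, at chr14:52305064-52305263 with a pileup of 6 and a fold enrichment of 4.61, and at chr14:52304548-52304747 with 5 and 3.95. The summit of the taller was 2 bp upstream of the listed start whose window is printed above, and the other was 539 bp downstream of it. Ythdc2, an m6A reader and helicase, had a peak of pileup 9 and fold enrichment 6.58, Igf2bp2, an RNA-binding protein that can recognise m6A, had 4 and 4.03, and Cbll1, an accessory subunit of the writer complex, had 4 and 3.62. No inner-band peak was found in Alkbh5, Mettl14, Wtap or Fto, nor in Gcgr, Egfr, Mtor, Alb or Hnf4a.

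In the circadian list, 5 of 19 genes were hosts (26.3%, interval 9.15 to 51.2%), the highest share of the 20 lists, but 3 were when the 1 kb limit was set from all annotated genes and 2 with −log10 q of 5 or more or with a fold enrichment of 5 or more. The clock activators Arntl and Clock had peaks of pileup 13 and 8, Nr1d1 had 36, Nfil3 9 and the repressor Cry2 9, and those of Clock and Nfil3 were within 40 bp of a listed start. Of 28 nuclear receptors 7 were hosts (25%, interval 10.7 to 44.9%), but 3 were with −log10 q of 5 or more and 2 with a fold enrichment of 5 or more. The 7 were the mineralocorticoid receptor gene Nr3c2, with a pileup of 13 and a fold enrichment of 8.14 at a listed start, then Esr1 (5.63), Thra (4.84), Pparg (4.84), Nr4a1 (4.58), Rara (4.33) and Rarg (4.09). Of 25 genes of actin and adhesion, 6 were hosts (24.0%), namely Itgav (5.94), Itga5 (5.91), Tpm3 (5.84), Myh9 (5.23), Pfn1 (4.63, at a summit that also lies in Eno3) and Flna (3.79). The values in parentheses are fold enrichments.

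Of 29 genes of TGF-beta, Wnt and Hippo signalling, 6 were hosts (20.7%, interval 7.99 to 39.7%), in a list with a median gene length of 69.0 kb, where 8.39% of all eligible genes of the longest quartile were hosts. Axin2, a feedback inhibitor and target of Wnt, had a pileup of 24 and a fold enrichment of 7.14 with the summit 45 bp from a listed start, and Tead3, Axin1, Yap1, Tgfb1 and Apc had fold enrichments of 6.67, 6.14, 5.83, 4.71 and 4.64. In the p53 list, 4 of 20 genes were hosts, with Gdf15, a stress cytokine gene of 3.08 kb, holding a pair of peaks with pileups of 20 and 16, beside Mdm2 (8), Cdkn1a (17) and Bbc3 (19). With −log10 q of 5 or more, or with a fold enrichment of 5 or more, the p53 list had 2 hosts. Of 27 chromatin methylation enzymes, 4 were hosts, with fold enrichments of 6.85 at a start of the DNA methyltransferase gene Dnmt1, 6.34 in Kmt2d, 6.25 in Kdm6a and up to 5.36 in Kdm6b. The antioxidant list had 3 of 19 (Txnrd1, Fth1 and Gpx4), cyclins and replication licensing 3 of 25 (Ccnd3, E2f3 and Ccnd2) and glucagon signalling 3 of 23 (Adcy6, Prkar1a and Crtc1). Under either of the same thresholds, glucagon signalling had 1 host.

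The remaining lists were lower. Fatty acid synthesis had 2 hosts of 20 (Srebf1 and Scd2), splicing factors 2 of 27 (Hnrnpu and Hnrnpl) and EGFR, insulin and mTORC1 signalling 1 of 28 (Erbb3, fold enrichment 5.33). Of the 23 eligible hepatocyte genes, 1 held a peak, the fetal serum protein gene Afp, with a pileup of 10 and a fold enrichment of 7.53, and 2 (8.70%) had a gene-end peak, against 33.5% of all eligible genes. The list of non-parenchymal liver cells had 2 hosts of 22, Stab2 and Csf1r, and the neuronal list 1 of 19, Rbfox3. Among 16 genes of fatty acid oxidation, 24 immediate early genes and 18 muscle genes, 0 were hosts, although 11 of the 16 and 18 of the 24 had a gene-end peak, beside 0 of the 18 muscle genes and 33.5% of all eligible genes. The immediate early genes are short, with a median of 4.73 kb. Peaks do not measure expression, so the few peaks at hepatocyte genes do not bear on the labelled cell line.

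**Figure D5:**
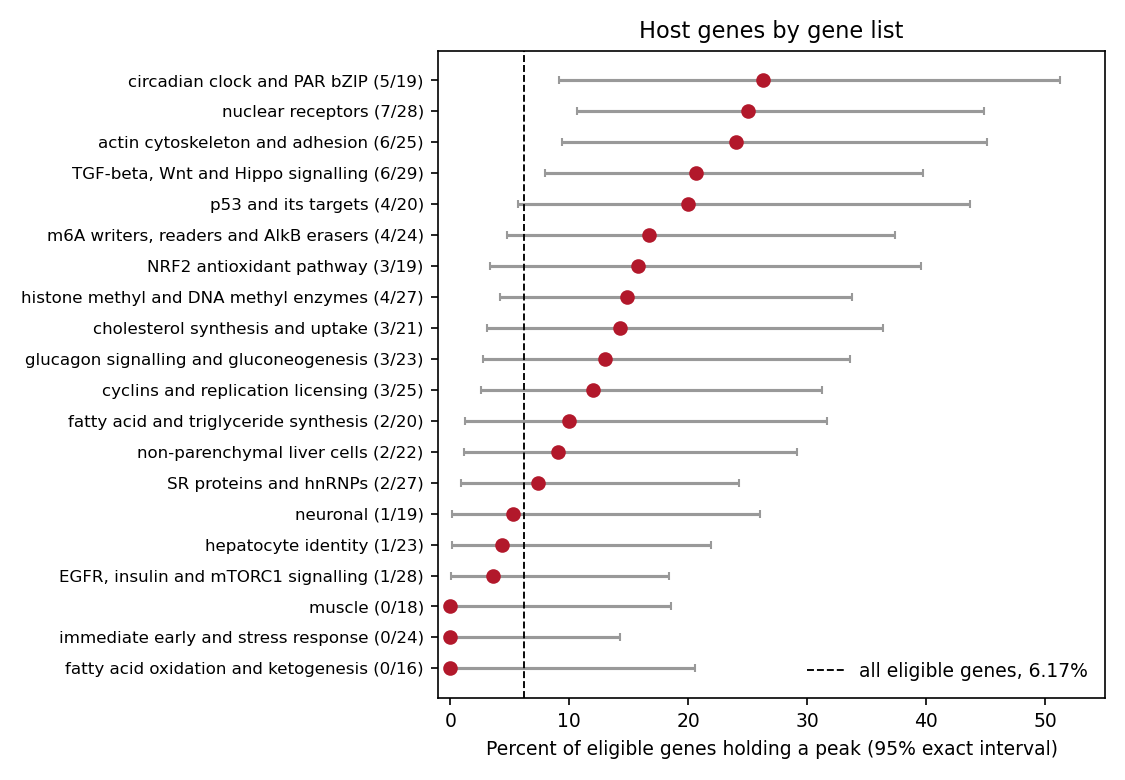
Percent of the eligible genes of each of 20 lists that hold an inner-band peak (points), with exact 95% intervals (bars) and the number of hosts and eligible genes in brackets; the dashed line is the 6.17% of all eligible genes. The circadian list is highest at 26.3%, a rank not kept under 3 alternatives, the lists of muscle, immediate early and fatty acid oxidation genes are at 0, and most intervals cross the line.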

How the data were processed

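Peak lists of 2 CUT&Tag libraries, 1 ALKBH5-FLAG and 1 IgG, were used, grouped by sample title. Bowtie2 2.2.9, SAMtools 1.3.1, MACS2 and R 3.4.1 with GRCm38 (mm10) are named in the submitters' processing notes, without roles or settings. Per the file headers, the deposited tables hold 1 list per library in the MACS2 layout. The authors' pileup is a coverage signal in fragments at the summit, and the authors' fold is the ratio of pileup plus 1 to local background plus 1. The headers of the deposited −log10 columns, of the p-value and of the q-value, were lost, and both were identified by their place in that layout. Whether IgG served as the control in peak calling is not stated.

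Gene limits, biotypes and starts came from the RefSeq tables of GRCm38.p6, with coordinates as the files give them. Peaks were overlapped by at least 1 bp, and bases of gene sequence were counted exactly by distance from the nearest end. Strand and starts were listed for 17491 of 21883 protein-coding genes. Windows of starts on opposite strands read as reverse complements in all 1843 pairs compared. Local background was computed from pileup and fold. Python 3.11.15, pandas 2.3.3, numpy 2.4.6 and scipy 1.17.1 were used, and the rule for choosing peaks was tested on simulated peaks.

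The peaks, gene lists, motifs and the measures of listed starts were chosen with earlier results of these data known. Genes named are the 12 peaks of highest fold, 6 of highest pileup, 6 widest, the 10 genes with most peaks, up to 4 peaks per list, 10 genes fixed by function, peaks at the distance limits, 8 near non-coding genes and 6 in hosts under 10 kb. Other names are said to be chosen after their values were seen, and further list hosts are named to complete their lists. Alternatives varied the peak threshold, the IgG overlap, the distance limits, the gene ends and the use of the summit.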

Additional observations from a re-analysis of the deposited data

How the results depend on the processing

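The density ratio of the band to deep gene sequence (2.29) ranged from 1.84 to 3.01 over the alternatives, so the band stayed the denser. The median fold enrichment ranged from 5.29 to 6.44. Its highest values, 6.44 with −log10 q of 5 or more and 5.92 with a fold enrichment of 5 or more, came from thresholds that select stronger peaks. Counts moved with thresholds by construction, since fewer peaks pass. With −log10 q of 5 or more, 488 peaks and 488 host genes remained, with 27 list hosts. With a fold enrichment of 5 or more there were 759 peaks, 746 host genes and 30 list hosts, and with a band of 1 to 5 kb there were 754 peaks and 759 host genes. The share nearer a 5′ end (72.5%) was 76.4% with −log10 q of 5 or more, 77.1% at 1 to 5 kb and 66.6% at 2 to 10 kb. The share of hosts with a gene-end peak (24.3%) was 18.6% at 1 to 5 kb. The share within 1 kb of a listed start (38.3%), a measure added after seeing the data, was 45.1% with −log10 q of 5 or more, 42.7% with a fold enrichment of 5 or more, 46.7% at 1 to 5 kb, 32.1% at 2 to 10 kb and 34.5% with the 1 kb limit set from all annotated genes. The causes of these moves in shares were not tested. Of the values for summary results under alternatives, 44 stayed within their counting interval or 1.5 times, and 17 moved. For single lists and the median pileup and width, 94 stayed and 22 moved.

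With 1 library per group, no spread between libraries is known, no result was tested, and there was no replicate to leave out. No paired analysis was possible because each group holds 1 library. Pileups of 3 to 52 fragments limit each peak, and the library depths are unknown here.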
